A study of Rattus norvegicus with 36 samples.

Results

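Rats that expressed a conditioned preference for a cocaine-paired place were compared with rats that received the same cocaine and did not express it. Rats were assigned to its groups by their phenotype label, with no measured value used. It took the 24 libraries labelled as dependent (CPP-E) or non-dependent (non CPP-E) out of the 36 libraries of the series, which are 6 of its 9 rats with 4 technical replicates each. All 6 animals were Sprague-Dawley rats of 8 weeks. All had 4 cocaine injections, 1 a day, then 15 days of withdrawal and a single further cocaine injection of 5 mg/kg given intraperitoneally. Their preference was then scored at once for 18 min. The series text also mentions an extinction phase of 12 days. The 3 CPPE rats and the 3 nCPPE rats thus shared strain, age and drug, and differed in behaviour. The sources used here give neither the score that parted them, nor the conditioning dose, nor the animals' sex. The outgroup was 3 Saline rats, which had serum in place of cocaine and entered a fit of CPPE against nCPPE only where all 9 rats, or all but Saline 2, are named.

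The nucleus accumbens is the ventral part of the striatum. Most of its neurons are GABAergic medium spiny neurons, which receive dopamine from the midbrain and glutamate from cortex, hippocampus, amygdala and thalamus, and it is best known for its part in reward learning and in the response to psychostimulants. Cocaine blocks the dopamine transporter and so raises extracellular dopamine there. In conditioned place preference an animal learns to link a compartment with the drug, and time spent in that compartment is the readout. Animals differ in how strongly they express the preference after an identical treatment, and the study compared their accumbens transcriptomes on that basis.

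Messenger RNA was read from bulk tissue, so that fewer cells of a type and less RNA per cell cannot be told apart. The tissue label is nucleus accumbens, while the extraction text also names the caudate putamen. The 6 rats had between 29654851 and 39067715 counts, with 19158 to 19319 genes detected by at least 1 count. The files list 32402 genes. In these rats 10535 of them had no count, and 15392 passed the low-count filter and were tested. Genes are known here only by Ensembl identifier, because 0 of the identifiers could be paired with a symbol. The marker lists for accumbens cell types could therefore not be set against the tissue label, and the function of the genes below is not stated.

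Between CPPE and nCPPE rats the fitted difference was above 2-fold for 111 of the 15392 tested genes, 73 higher and 38 lower in CPPE. Most of these were weakly expressed. By mean level 55 lay below 1 CPM (counts scaled to library size) and 49 at 1 to 10 CPM. A further 6 lay at 10 to 100 CPM and 1 at 100 CPM or more. The genes with the clearest separation were ENSRNOG00000016164, ENSRNOG00000031065, ENSRNOG00000027873 and ENSRNOG00000029386. Each was between 8.18-fold and at least 113-fold higher in CPPE rats. All CPPE rats lay above all nCPPE rats in them, as in 624 of the tested genes (4.05%). For ENSRNOG00000016164 and ENSRNOG00000029386 that separation was a condition of being named. All 4 were picked from the same 6 rats, so their size and separation are description and no added evidence. edgeR's quasi-likelihood test over all 15392 genes called 0 of them at an adjusted p below 0.05, a share of 0%. The smallest adjusted p, 0.0510, fell just short of that threshold and was shared by ENSRNOG00000016164 and ENSRNOG00000031065. Without 1 rat the edgeR adjusted p was 0.0643 to 0.418 for the first and 0.183 to 0.492 for the second. With all but Saline 2 in the fit it was 0.971 for both. For ENSRNOG00000027873 and ENSRNOG00000029386 it was at least 0.303 and 0.196 without 1 rat. DESeq2 on the same 6 rats called these 4 genes, all higher in CPPE, which is 0.0183% of the 21866 genes it tested. limma-voom with sample quality weights called 3 genes, each of which was also called by DESeq2. With all 9 rats in the fit DESeq2 called only ENSRNOG00000029386 and ENSRNOG00000016164, and with all but Saline 2 only ENSRNOG00000031065.

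ENSRNOG00000016164 had 7.60, 5.73 and 5.26 CPM in the CPPE rats and 0.751, 0.388 and 0.223 CPM in the nCPPE rats. The lowest CPPE rat was 7.0-fold above the highest nCPPE rat. The means were 6.19 ± 1.24 CPM and 0.454 ± 0.270 CPM (SD, n = 3 each), a 13.6-fold difference. On the log2 scale the fitted difference of this gene was 3.75 ± 0.37 (SE), with a 95% interval of 2.89 to 4.61. Its adjusted p was 0.0510 in edgeR, 1.08e-20 in DESeq2 and 0.0400 in limma-voom. The technical replicates are parts of the same summed counts, so their separation follows from the sums and is no added evidence. Each technical replicate of a CPPE rat had 36 to 62 counts of it, and each of an nCPPE rat 1 to 8. Among the Saline rats, Saline 1 had 24 counts in all, near the 7 to 25 counts of the nCPPE rats. Saline 2 and Saline 3 had 185 and 195 counts, near the 160 to 234 of the CPPE rats.

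ENSRNOG00000031065 was expressed at about 1 CPM. Its levels were 1.43, 1.66 and 1.28 CPM in the CPPE rats and 0.150, 0.162 and 0.223 CPM in the nCPPE rats. The rats of a group lay close together, and the groups were 5.75-fold apart at their nearest rats. The means were 1.46 ± 0.192 CPM and 0.178 ± 0.0391 CPM (SD, n = 3 each), a ratio of 8.18. Its log2 difference was 3.01 ± 0.32 (SE), with an adjusted p of 0.0510 in edgeR, 4.59e-05 in DESeq2 and 0.0259 in limma-voom. The underlying counts were 44, 65 and 39 in CPPE and 5, 5 and 7 in nCPPE rats. Saline rats had 46, 2 and 9 counts, so that Saline 1 was at the CPPE level and the other two near the nCPPE level.

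ENSRNOG00000027873 had 31, 77 and 39 counts in the CPPE rats and 2, 3 and 0 counts in the nCPPE rats. The corresponding levels were 1.42 ± 0.495 CPM and 0.0523 ± 0.0489 CPM (SD, n = 3 each), a ratio of 27.1. Its log2 difference was 4.67 ± 0.77 (SE), with a wide 95% interval of 2.92 to 6.43, since the nCPPE level rests on very few reads. The adjusted p was 0.218 in edgeR, 3.22e-05 in DESeq2 and 0.0864 in limma-voom. Saline 1 had 57 counts, inside the CPPE range, while Saline 2 and Saline 3 had 0.

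ENSRNOG00000029386 was the only gene with at least 10 counts in every rat of a group and no more than 3 counts in all of the other group together. It had 79, 248 and 52 counts in the CPPE rats and 0 in each nCPPE rat, and no gene met that rule in the opposite direction. The CPPE mean was 3.54 ± 2.46 CPM (SD, n = 3), at least 113-fold higher than the 0.0314 CPM that 3 counts over the nCPPE group would give. That bound covers counting error only. The adjusted p was 0.501 in edgeR, 5.11e-09 in DESeq2 and 0.0259 in limma-voom. Within the CPPE group CPPE 2 was the highest rat, at 6.34 CPM beside 2.57 and 1.71 CPM. The Saline rats had 77, 0 and 0 counts.

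In these 4 genes the Saline rats, which had no cocaine, were split between a high and a low level. For ENSRNOG00000031065, ENSRNOG00000027873 and ENSRNOG00000029386 the high rats were Saline 1 and the 3 CPPE rats, and the low rats were Saline 2, Saline 3 and the 3 nCPPE rats. For ENSRNOG00000016164 the Saline rats fell the other way round. A level typical of CPPE rats was therefore also found in rats without cocaine, and so was a level typical of nCPPE rats. The library of Saline 2 stands apart from all others, with 18351 genes detected where the other rats had 19023 to 19319. Whether that bears on its levels here was not tested. Saline 1 and Saline 3 alone also lay at opposite levels in each of these genes.

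**Figure D1:**
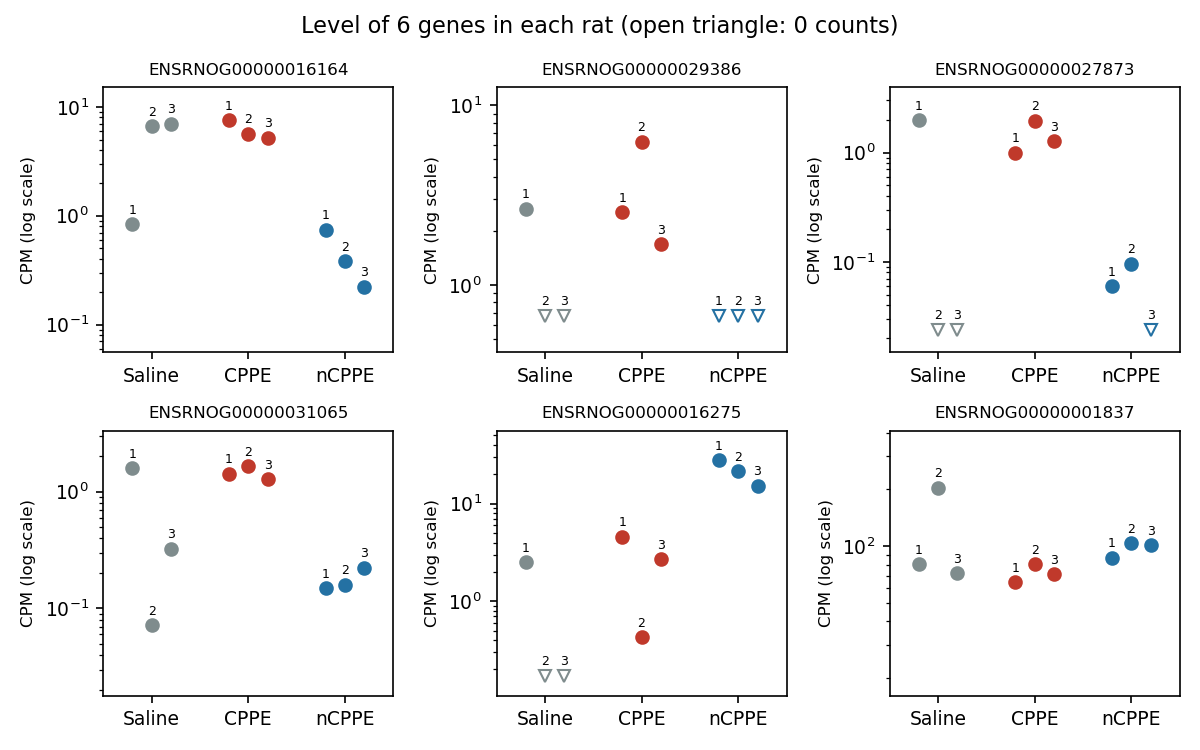
Level of the 6 genes described singly, in CPM on a log axis with all 9 libraries scaled together; each point is a rat, numbered by its label, and open triangles at the foot of a panel stand for 0 counts. CPPE and nCPPE rats do not overlap in any panel, as for 8.50% of all tested genes. This was a condition for naming all but ENSRNOG00000027873 and ENSRNOG00000031065. Saline rats lie at both levels for the first 4 genes.

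In the opposite direction no gene was called by any of the 3 tools. The gene with the smallest p among those lower in CPPE and averaging at least 1 CPM was ENSRNOG00000016275. It had 4.64, 0.435 and 2.73 CPM in the CPPE rats and 28.0, 21.6 and 15.3 CPM in the nCPPE rats, which left a gap of 3.29-fold between the nearest rats. The means were 2.60 ± 2.11 CPM and 21.6 ± 6.37 CPM (SD, n = 3 each), 8.31-fold apart. Its log2 difference was -3.09 ± 0.57 (SE), at an adjusted p of 0.997 in edgeR, 0.888 in DESeq2 and 0.472 in limma-voom. CPPE 2 had 17 counts of this gene, beside 143 and 83 in the other CPPE rats. Without CPPE 2 the DESeq2 adjusted p was 9.8e-14, and without CPPE 1 it was 0.0496. In edgeR the adjusted p was 0.266 to 1 without 1 rat. Saline rats had 73, 0 and 0 counts, all of them below the 480 to 933 of the nCPPE rats.

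The next gene in that direction, ENSRNOG00000001837, was of moderate abundance and differed little. It had 65.3, 81.0 and 71.9 CPM in CPPE and 87.8, 105 and 101 CPM in nCPPE rats. These are means of 72.8 ± 7.91 CPM and 98.0 ± 9.0 CPM (SD, n = 3 each). The fitted log2 difference was -0.43 ± 0.10 (SE), and the adjusted p was 0.997 in edgeR and 0.546 in DESeq2. Without CPPE 2 the DESeq2 adjusted p was 0.0198. The highest CPPE rat was only 1.08-fold below the lowest nCPPE rat. Saline 1 and Saline 3 had 2329 and 1998 counts of it and Saline 2 had 5706, more than any cocaine rat. With all 9 libraries scaled together these were 80.6, 71.9 and 204 CPM. On that scale Saline 1 and Saline 3 were near the CPPE rats (64.7 to 80.5 CPM) and below the nCPPE rats (87.1 to 104 CPM).

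Most of the genes that led by p differed by less than these. Among genes averaging at least 1 CPM whose groups did not overlap, the 10 with the smallest p in each direction averaged 1.15 to 91.3 CPM if higher in CPPE and 5.43 to 85.4 CPM if lower. They include ENSRNOG00000016164 and ENSRNOG00000029386 among the higher and ENSRNOG00000016275 and ENSRNOG00000001837 among the lower genes. Of the 10 higher genes 6 differed by less than 1.5-fold, with a median log2 difference of 0.50. Of the 10 lower genes 9 did, with a median of -0.31. In edgeR the adjusted p was between 0.051 and 0.997 for the higher genes and 0.997 for each of the lower ones.

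**Figure D2:**
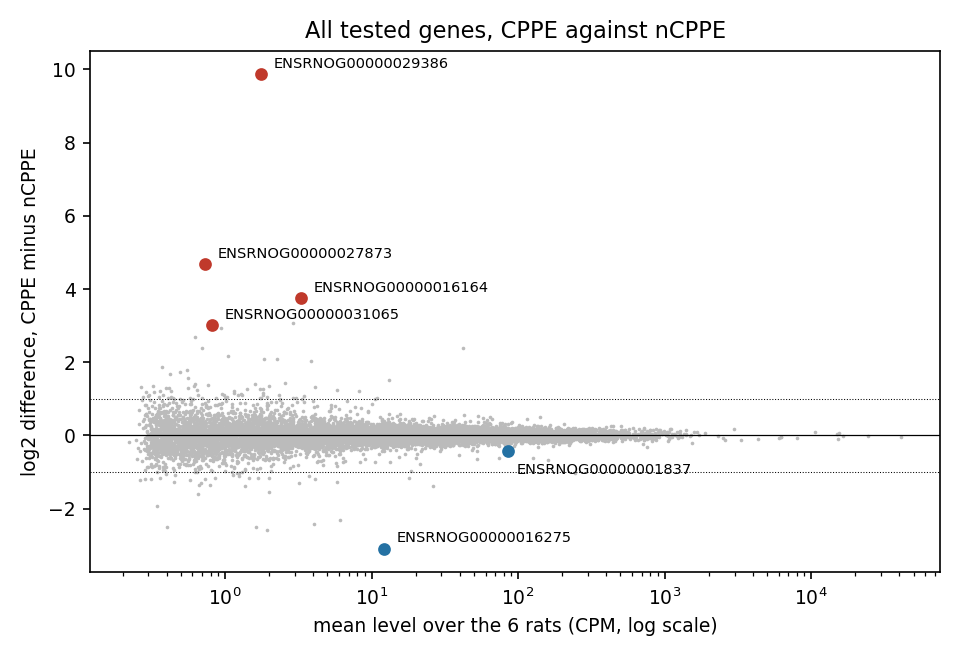
Log2 difference of CPPE minus nCPPE (vertical axis) against mean level over the 6 rats in CPM (log axis) for all 15392 tested genes, with dotted lines at 2-fold. The 6 genes described singly are in colour; 5 of them lie outside the main cloud and ENSRNOG00000001837 lies at its lower edge. The height of ENSRNOG00000029386 is a fitted value against a group with 0 counts, not a measured ratio.

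An unadjusted p below 0.05 was found for 433 genes, 2.81% of those tested, fewer than the 5% that unchanged genes would give. Of these, 230 (1.49%) were higher and 203 (1.32%) lower in CPPE rats. The median log2 difference among them was 0.32 for the higher and -0.35 for the lower genes, and 34 and 26 respectively differed by more than 2-fold. At an unadjusted p below 0.01 there were 36 genes, 0.234% where unchanged genes would give 1%. The first bin of the p-value plot is the lowest of all.

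**Figure D3:**
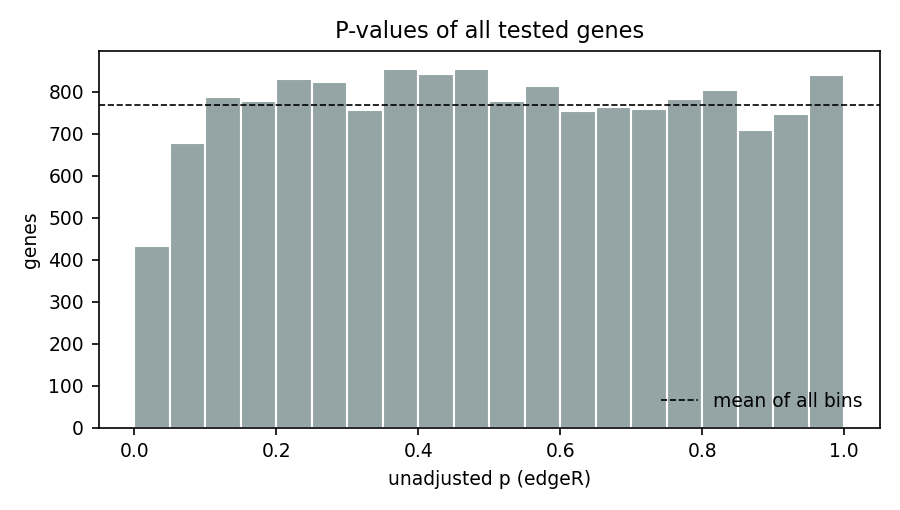
Number of genes (vertical axis) by unadjusted edgeR p in bins of 0.05 (horizontal axis), all 15392 tested genes; the dashed line is the mean of all bins. The bin below 0.05 holds 433 genes and the next 679, both below the line.

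Groups did not overlap for 624 genes with CPPE higher, 4.05% of those tested, and for 685 genes with CPPE lower, 4.45%. In most of these the groups nearly touched, with a median gap between the nearest rats of 1.02-fold for the higher and 1.03-fold for the lower genes. A gap of at least 1.5-fold was found for 12 higher and 7 lower genes. A gap of at least 2-fold was found for 4 higher genes, which are the 4 described above, and for 3 lower genes, of which ENSRNOG00000016275 is 1.

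Many differences above 2-fold did not stay above it when 1 rat was left out. Of the genes averaging at least 1 CPM, 56 differed by more than 2-fold, 34 higher and 22 lower in CPPE. For 48 of these (85.7%) the difference dropped below 2-fold, or changed sign, when some single rat was left out. This happened most often without nCPPE 3 (25 genes) or CPPE 2 (21 genes), and without each of the other rats for 9 to 13 genes. A gene can count under more than 1 rat, and a gene just above 2-fold drops after a small shift. The numbers therefore do not show that a difference rested on 1 animal. Only 8 genes stayed more than 2-fold apart without each rat in turn. Groups did not overlap for 6 of them, beside 8.50% of all tested genes, but this way of choosing genes itself favours groups without overlap.

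How large a difference the 6-rat fit allowed depended on the level of the gene. Of 13771 genes averaging at least 1 CPM, the 95% interval of the fold change lay within 1.5-fold in both directions for 11246 (81.7%), within 2-fold for 13164 (95.6%) and within 4-fold for 13673 (99.3%). With all 9 rats in the fit the count for 1.5-fold was 6558 in place of 11246. In the 6-rat fit the median SE of the log2 difference was 0.0802 at 100 CPM or more, 0.0912 at 10 to 100 CPM, 0.204 at 1 to 10 CPM and 0.362 below 1 CPM. A 1.5-fold difference was accordingly excluded for 98.7% of the most abundant genes and for 46.2% of genes at 1 to 10 CPM. Below 1 CPM it was excluded for 0.308% of genes, and a 2-fold difference for 37.0%.

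**Figure D4:**
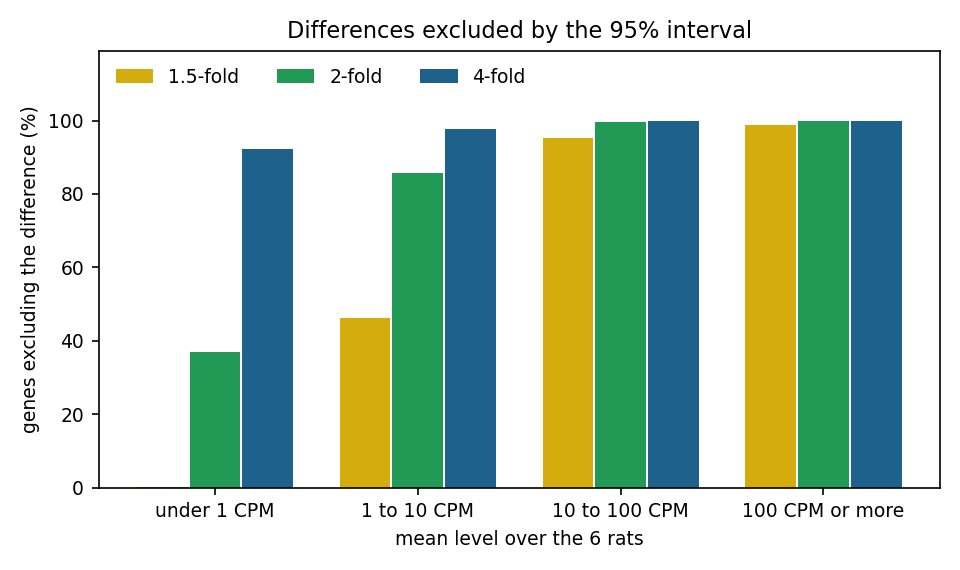
Share of genes (vertical axis, percent) whose 95% interval excludes a 1.5-, 2- or 4-fold difference between CPPE and nCPPE in either direction, by mean level over the 6 rats. The share for 1.5-fold runs from 0.308% below 1 CPM to 98.7% at 100 CPM or more.

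Across the whole transcriptome rats of a phenotype were no more alike than rats of different phenotypes. Pearson's r of log2 CPM across genes, which are not independent replicates, was 0.983 to 0.992 for the 6 pairs of rats within a group and 0.982 to 0.993 for the 9 pairs between groups, with medians of 0.988 and 0.990. Group accounted for 18.0% of the squared distances between rats, with a pseudo-F of 0.877. By an exact one-sided permutation test over all 10 splits of the rats p was 0.5, and this design cannot give a p below 0.1. Of the variance 39.8% lay on the first principal component, which placed CPPE 2 (27.8) beside nCPPE 3 (24.7) at one end and nCPPE 2 (-27.0) at the other. On each of the 5 components CPPE and nCPPE rats overlapped.

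**Figure D5:**
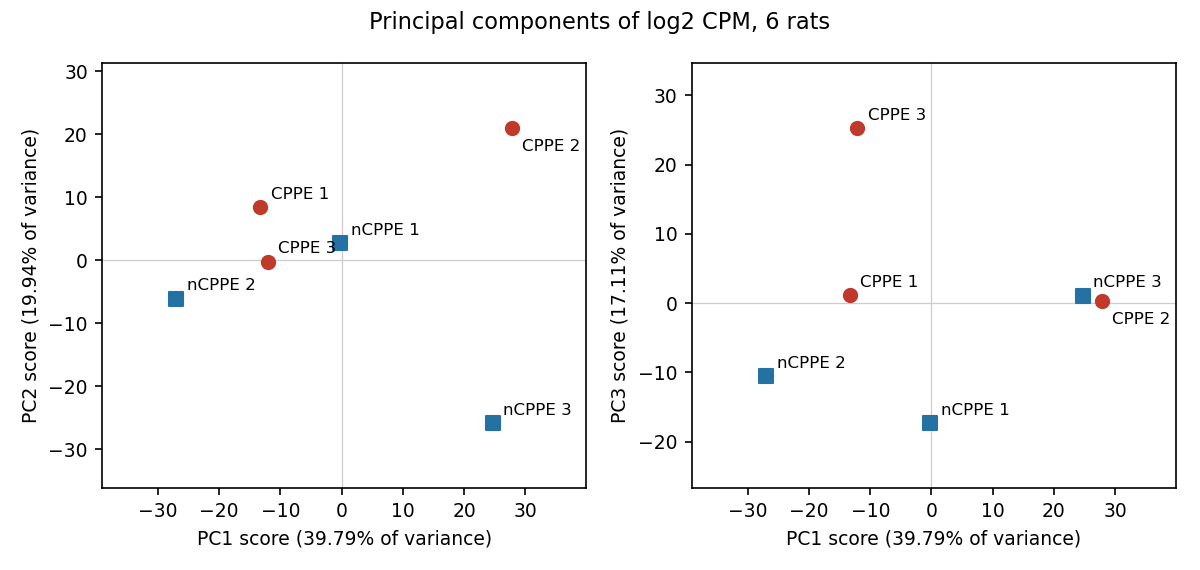
Scores of the 6 rats on the first principal component (horizontal axes) against the second and the third (vertical axes) of log2 CPM over 15392 genes, CPPE as circles and nCPPE as squares. CPPE 2 and nCPPE 3 lie together on the first component, and no axis parts the groups.

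Spread within the groups was similar, and it fell most without CPPE 2 and without nCPPE 3. The biological coefficient of variation was 11.8% within CPPE and 13.3% within nCPPE rats. Without CPPE 2 the first fell to 8.44%, and without nCPPE 3 the second fell to 9.61%. The CPPE value was 13.2% without CPPE 1 and 13.3% without CPPE 3. The nCPPE value was 16.8% without nCPPE 1 and 12.3% without nCPPE 2. Against the mean of the other 5 rats, 342 genes lay over 2-fold away in nCPPE 3, 313 in CPPE 2, 286 in nCPPE 2, 229 in CPPE 3, 178 in CPPE 1 and 147 in nCPPE 1. limma-voom gave the lowest sample weights to CPPE 2 (0.530), nCPPE 3 (0.620) and nCPPE 2 (0.732) and the highest to nCPPE 1 (2.09). The count of genes at an unadjusted p below 0.05 in edgeR moved from 433 to 809 without nCPPE 3 and to 288 without CPPE 2. edgeR called 0 genes without any 1 of the 6 rats.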

How the data were processed

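Per the labels' protocols, poly(A)+ RNA was purified from 300 ng of total RNA for strand-specific libraries. The submitters' processing notes name bcl2fastq 2.18.0.12, STAR and HTSeq 0.5.3. The sources used here do not give build, annotation or strand setting, so genes that overlap others or have close copies carry uncertain counts. The authors deposited raw read counts per Ensembl gene, 1 file per technical replicate. Technical replicates differed by no more than counting noise (chi-square per degree of freedom 1.00 to 1.02) and were summed, so each rat is 1 sample.

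The 6 CPPE and nCPPE rats were fitted alone in edgeR 4.0.16 (R 4.3.3): filterByExpr, TMM scaling, quasi-likelihood F-test, Benjamini-Hochberg adjustment over all genes tested, calls at adjusted p below 0.05. DESeq2 1.42.0 and limma 3.58.1 (voom with quality weights) were alternatives. CPM uses TMM-scaled library sizes, and log2 CPM a prior count of 2. Named genes were the first 2 in each direction by edgeR p among genes of at least 1 CPM with groups that did not overlap. ENSRNOG00000027873 and ENSRNOG00000031065, which DESeq2 called, fall outside that rule and were named after their values were seen. The comparison and lists were chosen with earlier results of these data known. The reference table (GRCr8) held no Ensembl identifiers, so none of 39 gene lists gave a value and no sequence is shown.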

Additional observations from a re-analysis of the deposited data

How the results depend on the processing

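The directions of the 6 genes described singly were the same under every alternative that gave them a value. The groups of these genes do not overlap, so leaving out a rat could not reverse them, and the sameness is no added evidence. The number of genes called at an adjusted p below 0.05, 0 in edgeR, was 4 with DESeq2, 3 with limma-voom, 4 in edgeR without the filter on low counts, 2 with robust estimation and 1 from technical replicate a alone. It was 0 with DESeq2 size factors, with genes of at least 1 CPM, with all 9 rats, with all but Saline 2, and without each of the 6 rats. Under the alternatives above that made calls, every called gene was among the 4 higher in CPPE. The cause of these differences was not tested. DESeq2 fits of other sets of rats were chosen after seeing the data. They called 2 genes with all 9 rats, 1 with all but Saline 2, and 11, 8 and 5 without CPPE 1, 2 and 3 and 8, 7 and 14 without nCPPE 1, 2 and 3, where the 4 genes passed each time. Genes at an unadjusted p below 0.05 numbered 433 in edgeR, 288 to 809 without 1 rat, 84 with all 9 rats, and in DESeq2 137 with all 9 rats and 212 to 720 without 1 rat. With all 9 rats, where the spread of Saline 2 enters, the interval excluded a 1.5-fold difference for 6558 genes in place of 11246. Pseudo-F was 0.803 to 1.01 without 1 rat.

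By the labels used here, rats of the same number share only that number, and any other link between them was not tested. Their deviations from the group means correlated at 0.0759, -0.454 and -0.126 across genes, and no rat correlated best with its own number. With the replicate block 0 genes were called by edgeR, with 278 at an unadjusted p below 0.05. DESeq2 with the replicate block called 6, among them all of the 4 except ENSRNOG00000031065, with 156 at an unadjusted p below 0.05. No list could be tested under any alternative. At the lower depth of technical replicate a alone a 1.5-fold difference was excluded for 9911 genes in place of 11246.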

Other observations

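The Saline rats took no part in choosing genes between CPPE and nCPPE, so their levels show on which side rats without cocaine lay. Of the 433 genes at an unadjusted p below 0.05, 432 were also expressed in the scaling over all 9 rats. Saline 1 was nearer to the CPPE mean than to the nCPPE mean in log2 CPM for 58.6% of them, and Saline 3 for 56.9%. Over all 15555 genes of that scaling the shares were 48.8% and 51.1%. Saline 2, whose library stands apart from all others of the series, was nearer to CPPE for 36.6% of these genes and for 44.7% of all genes. The 3 Saline rats thus did not lie on a common side, and no test was made.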
